A study of Mus musculus with 13 samples.

Results

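The 10 genes described here regulate the G1 phase of the cell cycle. They are the Ink4 inhibitors Cdkn2a, Cdkn2b and Cdkn2c and the Cip/Kip inhibitors Cdkn1a, Cdkn1b and Cdkn1c. The D cyclins Ccnd1, Ccnd2 and Ccnd3 and Trp53, which encodes p53, complete the list. All were chosen by name, as 10 of the 55450 genes of the GENCODE M21 annotation. The rule of choice used no measured value, but earlier results of these data were known when it was made. Chromatin accessibility at their promoters, bodies and 20 kb flanks was read from ATAC-seq peak lists of 13 cultures of mouse oligodendrocyte progenitor cells (OPCs), in which the Tn5 transposase marks open DNA. An open promoter is not a measure of transcription, and no RNA or histone mark was analysed here. All coordinates are mm10 (GRCm38), 1-based.

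D cyclins bind Cdk4 and Cdk6, which phosphorylate the retinoblastoma protein and so let E2F factors open S phase. Ink4 proteins block Cdk4 and Cdk6 directly, while Cip/Kip proteins bind cyclin-Cdk complexes. Cdkn2a has separate promoters for p16 (Ink4a) and p19 (Arf), and Arf protects p53 from Mdm2. The locus is a classical Polycomb target, silenced through H3K27 methylation in many dividing progenitors, and the H3.3 K27M mutation of diffuse midline glioma interferes with that mark.

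The cultures came from litters of hGFAP-Cre mice, written AMGFAP-Cre;K27M in the labels, on an FVB background, taken at P5 to P7. The K27M groups carried a conditional knock-in at the endogenous H3.3 gene H3f3a, expressed after Cre deletes a stop cassette, and controls were their littermates. The study's single-cell methods describe littermate controls as lacking Cre, with H3f3a expressed from 1 allele because of the stop cassette, and for these cultures the control alleles are not stated separately. Cre is driven in neural stem and progenitor cells rather than in OPCs alone. Tissue was pooled over pups by region and genotype, OPCs were panned with an antibody to PDGFRα and all groups were kept in proliferation medium, without differentiation or any other treatment. Brainstem was represented by control cultures 51, 59 and 61 and K27M cultures 41, 59 and 61. Dorsal telencephalon (cortex, corpus callosum and hippocampus) was represented by control cultures 51, 59 and 61 and K27M cultures 41, 51, 59 and 61. Culture 41 thus had no control partner. The comparison of genotypes within each region asks whether K27M alters accessibility at these loci, and Cdkn2a is of interest as a known target of the mutation.

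The lists held 16879 (control telencephalon 59) to 52466 (control brainstem 61) peaks, and they hold no read counts, so depth is unknown and a peak missing from a list is one not called at that depth. The value used throughout is the deposited fold of a peak over its local background, together with its percentile among all folds in the same list. The fold is averaged over the whole broad peak, so a wide peak can have a low fold. The promoters of 4 of 5 OPC markers (Pdgfra, Olig1, Olig2 and Sox10) had a peak in all 13 libraries. Of the mature oligodendrocyte markers, 0 to 2 of 4 had one in a given library, and Mog and Mag had none in any. Microglial markers had 0 to 2 of 3 and endothelial markers 0 to 1 of 2, whereas astrocyte markers had 1 to 3 of 3 (Gfap in all 13) and neuronal markers 2 to 3 of 3 (Snap25 and Tubb3 in all 13). The H3f3a promoter had a peak in all 13 libraries, which does not tell the genotypes apart. In such bulk cultures, fewer cells with an open site and a less open site in each cell cannot be told apart.

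Promoter sequences are shown for the start sites on which the results turn, to set those with a called peak beside those without one. They are from RefSeq on GRCm38.p6, on the strand of transcription, and end just before the first transcribed base of that start. Of the 10 genes, 7 matched the sequence table, with 11 windows, and Cdkn1c, Ccnd1 and Ccnd2 are named only. Capitals mark the CCAAT box with exactly those letters, the GC box spelled GGGCGG here, an E2F word (TTTCCCGC or TTTCGCGC, and likewise TTTGCCGC or TTTGGCGC) and a p53 half-site, each searched on both strands. The first 3 sequences are the p16 promoter (chr4:89282193-89282442, minus strand), the p19 promoter (chr4:89294654-89294869, minus strand) and the Cdkn2b promoter (chr4:89311040-89311282, minus strand).
Ink4a: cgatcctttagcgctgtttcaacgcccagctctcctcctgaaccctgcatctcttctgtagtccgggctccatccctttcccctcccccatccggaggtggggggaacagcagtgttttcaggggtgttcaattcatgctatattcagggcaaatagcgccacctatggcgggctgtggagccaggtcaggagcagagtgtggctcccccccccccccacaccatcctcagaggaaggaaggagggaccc
Arf: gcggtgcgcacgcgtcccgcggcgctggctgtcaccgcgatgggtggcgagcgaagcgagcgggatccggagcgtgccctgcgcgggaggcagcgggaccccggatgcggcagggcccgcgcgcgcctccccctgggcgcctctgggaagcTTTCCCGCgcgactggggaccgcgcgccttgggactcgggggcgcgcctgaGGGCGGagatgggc
Cdkn2b: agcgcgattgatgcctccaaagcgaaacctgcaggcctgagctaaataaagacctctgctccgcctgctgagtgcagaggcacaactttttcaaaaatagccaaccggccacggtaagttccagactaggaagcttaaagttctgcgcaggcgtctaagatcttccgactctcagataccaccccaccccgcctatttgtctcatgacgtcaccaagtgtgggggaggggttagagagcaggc
The next pair are the Cdkn1a start without a peak (chr17:29090729-29090975, plus strand) and the start with one in 13 of 13 libraries (chr17:29093519-29093768, plus strand).
Cdkn1a-upstream: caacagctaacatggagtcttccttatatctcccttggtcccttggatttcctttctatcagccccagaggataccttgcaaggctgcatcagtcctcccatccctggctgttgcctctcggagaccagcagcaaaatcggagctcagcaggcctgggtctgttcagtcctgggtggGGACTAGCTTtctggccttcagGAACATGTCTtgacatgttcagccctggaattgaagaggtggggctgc
Cdkn1a-downstream: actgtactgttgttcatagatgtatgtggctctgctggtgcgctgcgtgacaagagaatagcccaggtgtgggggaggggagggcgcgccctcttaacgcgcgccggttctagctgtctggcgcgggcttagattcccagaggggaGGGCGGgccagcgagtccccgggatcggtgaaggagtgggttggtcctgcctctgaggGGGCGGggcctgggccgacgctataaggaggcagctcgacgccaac
The last pair are the upstream Ccnd3 start (chr17:47504801-47505050, plus strand) and the internal one (chr17:47593217-47593435, plus strand).
Ccnd3-upstream: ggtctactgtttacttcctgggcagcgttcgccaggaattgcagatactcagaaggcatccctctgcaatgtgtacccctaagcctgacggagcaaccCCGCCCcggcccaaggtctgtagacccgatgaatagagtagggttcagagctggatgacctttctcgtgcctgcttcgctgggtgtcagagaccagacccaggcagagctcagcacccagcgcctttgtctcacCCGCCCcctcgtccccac
Ccnd3-internal: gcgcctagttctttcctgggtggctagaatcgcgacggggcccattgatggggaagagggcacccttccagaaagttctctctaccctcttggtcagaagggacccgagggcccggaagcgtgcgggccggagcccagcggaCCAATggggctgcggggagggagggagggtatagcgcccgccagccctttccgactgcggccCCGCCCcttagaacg

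Over the 32817 promoter windows of 300 bases in the same table, 35.6% held a GC box, 37.4% a CCAAT box, 2.26% an E2F word and 8.36% a p53 half-site, and the median window held 7 CpG dinucleotides. These counts are for the whole windows. They include 50 bases after the RefSeq start and, in some windows, the bases between an earlier GENCODE start and it. Those bases are not shown, so some matches lie outside the stretches above. The Arf window held 45 CpG, at percentile 98.1 of all windows, with 3 GC boxes and the only E2F word found among the 11 windows of these genes. The Ink4a window held 12 CpG and the Cdkn2b window 18. The upstream Cdkn1a window, which had no peak in any library, held 2 CpG and 2 p53 half-sites, against 23 CpG and no half-site for the start that was open in every library. The upstream Ccnd3 window, with no peak over its start, held 15 CpG and the internal one 28. Other windows went the other way. The Trp53 window held 10 CpG and 1 p53 half-site, and that of the downstream Cdkn2c start 8 CpG. Both of these starts had a peak in 13 of 13 libraries, so neither count parts the starts with a peak from those without. These matches are letters in a window and say nothing of binding.

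Promoter peaks were called in all 13 libraries for 8 of the 10 genes, namely every gene but Cdkn1c and Ccnd2. Of all 55450 genes 20.7% had a promoter peak in every library, and of the 21951 protein-coding genes 42.0%. Among the 8, the deposited fold of the strongest promoter peak was highest at Cdkn2a (3.91 ± 0.58, SD over 13 libraries), Cdkn1b (3.64 ± 0.314), Cdkn2b (3.54 ± 0.585) and Cdkn2c (3.32 ± 0.32). Cdkn1a (2.74 ± 0.417), Ccnd3 (2.64 ± 0.215), Trp53 (2.62 ± 0.203) and Ccnd1 (2.35 ± 0.188) were lower. The spreads of Cdkn2a, Cdkn1b and Cdkn2b overlapped widely, as did those of Cdkn1a, Ccnd3 and Trp53. Within their own lists, the median percentile of fold was 89.0 for Cdkn2a and 81.8 for Cdkn1b but 23.1 for Trp53 and 4.45 for Ccnd1. The median peak width was 2932 bp at Trp53 and 2507 bp at Ccnd1, against 1477 bp at Cdkn2a.

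**Figure D1:**
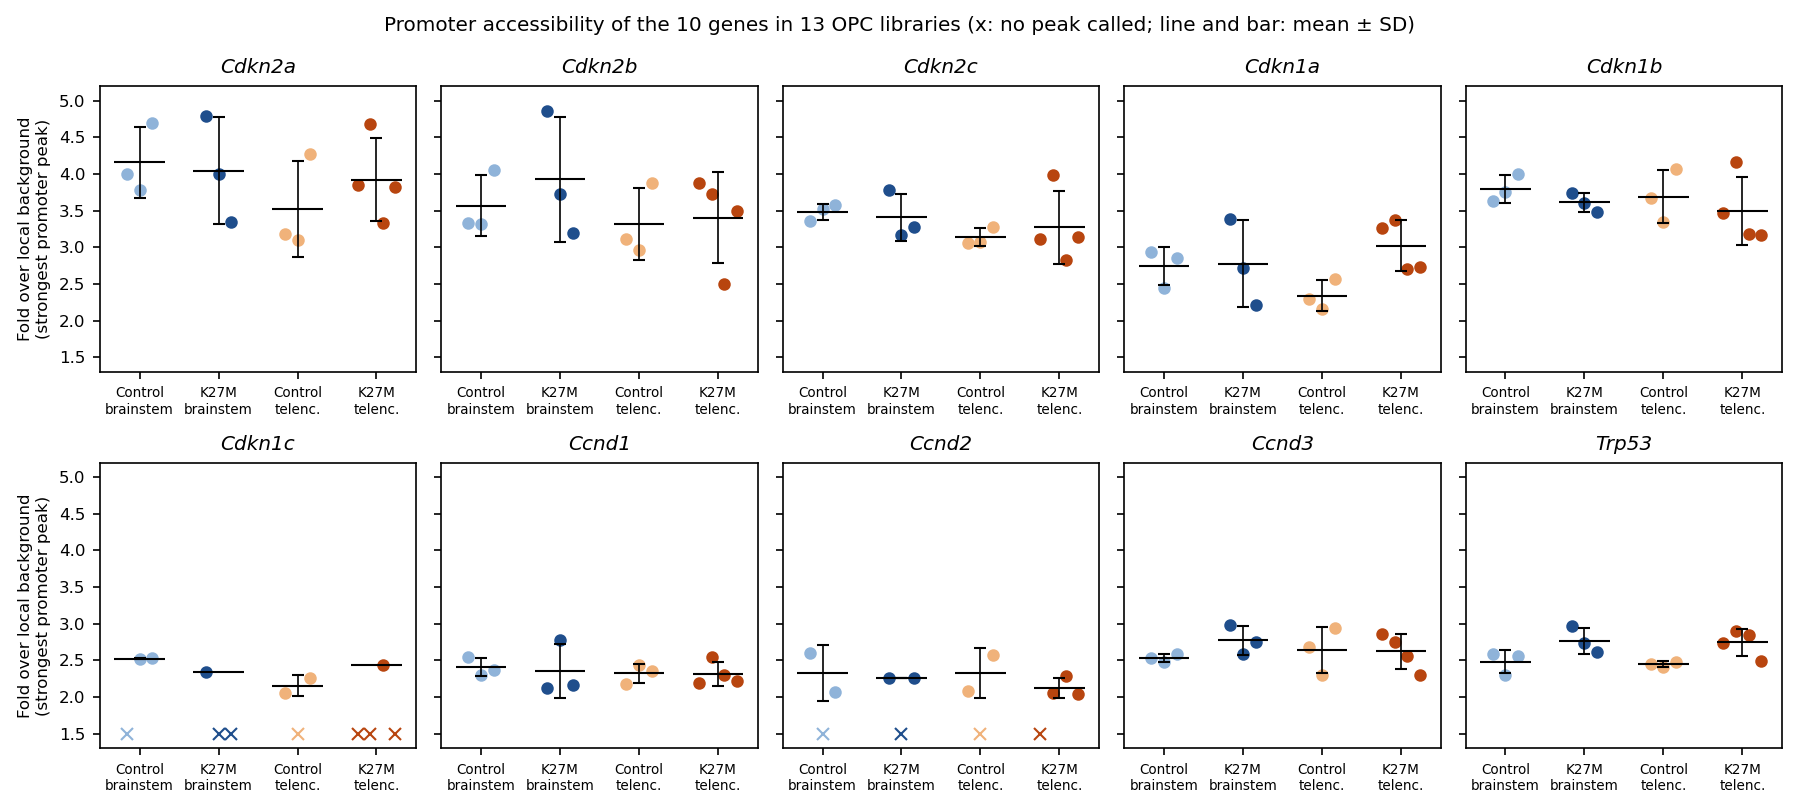
Deposited fold over local background of the strongest promoter peak of each gene (vertical axis) in the 13 libraries, by group on the horizontal axis; circles are libraries, crosses libraries without a called peak, and lines with bars the mean ± SD of the libraries with one. Among genes with a peak in all 13 libraries, every K27M circle lies above every control circle for Cdkn1a in telencephalon and for Trp53 in both regions, while Cdkn1c lacks a peak in 7 libraries and Ccnd2 in 4.

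No gene of the 10 passed the test for a genotype difference at its promoter. limma on the log2 fold, with libraries brought to 1 scale by cyclic loess and culture as a block, called 0 of the 8 testable genes in brainstem (background 0.0% of 11483 promoters) and 0 of 8 in telencephalon (background 0.0%), at an adjusted p under 0.05. Without adjustment, 0 of the 8 in brainstem and 1 of the 8 in telencephalon (Cdkn1a; background 4.41%) had a p under 0.05. The difference of the K27M effects between regions was called at 0 of 8 (background 0.0%), with 1 unadjusted p under 0.05, again Cdkn1a (background 4.31%). Over all promoters, 513 in brainstem, 506 in telencephalon and 495 for the difference had an unadjusted p under 0.05. The comparison of brainstem with telencephalon called 0 of the 8 (background 0.0348%, 4 of 11483 promoters), and 0 of the 8 had an unadjusted p under 0.05 (background 5.35%). The median log2 difference of the 8 genes was 0.01 in brainstem and -0.02 in telencephalon, beside medians of all promoters of -0.002 and -3.3e-05. The 95% intervals of single genes reached about 0.21 either side in brainstem and 0.19 in telencephalon, as medians over the 8.

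**Figure D2:**
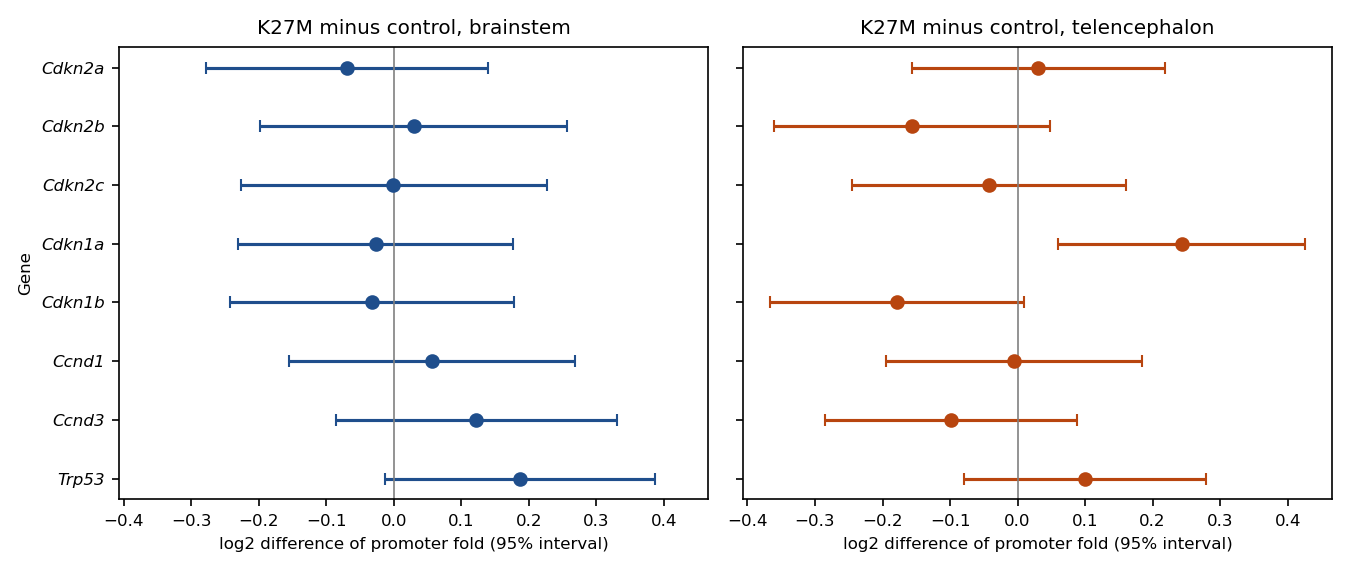
Log2 difference of normalised promoter fold, K27M minus control, for the 8 genes with a promoter peak in all 13 libraries (points, with 95% intervals from limma), in brainstem and in telencephalon. All intervals cross 0 except that of Cdkn1a in telencephalon, from 0.06 to 0.43, whose adjusted p was 0.999.

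Cdkn2a (ENSMUSG00000044303.6, chr4:89274471-89294653, minus strand) encodes p16 and p19 from start sites 12461 bp apart. The peak over the Arf start, chr4:89293982-89295939 when joined over libraries, was called in 13 of 13 libraries and lies on the first exon of Arf and its promoter. Its fold was 3.52, 3.78 and 4.70 in control brainstem cultures 51, 59 and 61, and 4.80, 4.00 and 3.34 in K27M brainstem cultures 41, 59 and 61. In telencephalon it was 3.19, 3.09 and 4.27 in control cultures 51, 59 and 61, and 3.85, 4.68, 3.33 and 3.82 in K27M cultures 41, 51, 59 and 61. The genotypes overlapped in both regions, and the list percentile of the peak was 70.5 or higher everywhere. The log2 difference at the joined peak was -0.02 ± 0.11 (SE) in brainstem and 0.03 ± 0.10 in telencephalon (limma, adjusted p = 0.994 and 0.998). At the gene level, where the strongest peak of either promoter is taken, it was -0.07 in brainstem (95% interval -0.28 to 0.14) and 0.03 in telencephalon (-0.16 to 0.22), with limma adjusted p of 0.997 and 0.999.

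The Ink4a promoter, which starts p16 from within the Arf transcription unit, had a called peak in fewer libraries. A peak over its start, joined as chr4:89281835-89283020 across the first exon of Ink4a and the adjoining Arf intron, was called in 7 of 13 libraries. Control brainstem had it in 3 of 3, with folds of 4.00, 3.59 and 3.65 in cultures 51, 59 and 61. K27M brainstem had it in 1 of 3, culture 61, at 2.63. Control telencephalon had it in 2 of 3, at 2.64 in culture 51 and 2.93 in culture 61, and K27M telencephalon in 1 of 4, culture 61, at 3.13.

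The peak was therefore present in 5 of 6 control and 2 of 7 K27M libraries. This did not pass a two-sided exact permutation of genotype within region (p = 0.114 over 700 arrangements) or Fisher's exact test (p = 0.103, adjusted p = 1.0 over 11706 merged peaks found in 5 to 8 libraries, background 0.0%, with 147 at an unadjusted p under 0.05). Both control brainstem 59 and control telencephalon 51 had the peak and their K27M partners did not, and no matched pair showed the reverse among 5. Cultures 59 and 61 gave a pair in each region, so these 5 pairs do not stand for 5 separate culture numbers. With only 2 pairs that differed, an exact permutation within pairs cannot give a p below 0.5, so the pairs are given without a test. All 4 libraries of culture 61 had it. The K27M libraries without it had 48487 and 34168 peaks in brainstem and 39038, 52164 and 30248 in telencephalon, and the control library without it, telencephalon 59, had 16879. The libraries with it had 27768 to 52466, and the part of list size in the missing peaks was not tested. Among the 16879 most significant peaks of each list, only control brainstem 51 and 59 kept it, and at a p of 1e-10 or less no library did. Counting this start site apart from Arf was decided after the peaks had been seen, with 50 merged peaks at these loci in view. In the libraries that had both, the Ink4a fold was 0.686 to 1.14 times the Arf fold, and only control brainstem 51 had the higher value at Ink4a.

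**Figure D3:**
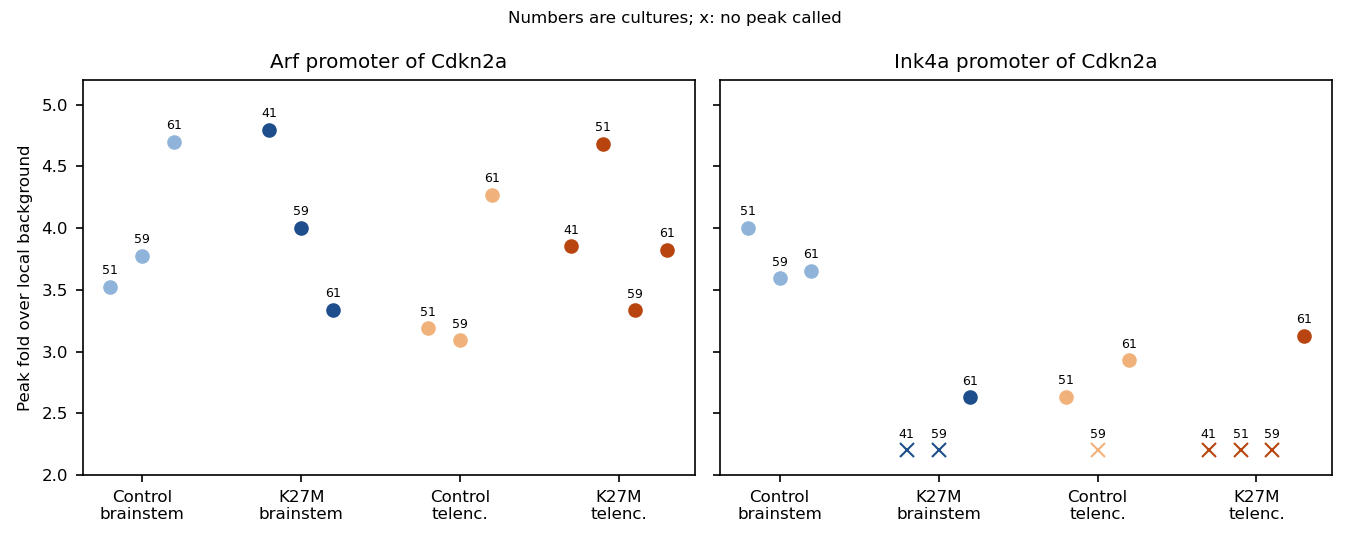
Deposited peak fold over local background at the Arf promoter (left) and the Ink4a promoter (right) of Cdkn2a by group; each point is a library labelled with its culture number, and crosses are libraries without a called peak. The Arf promoter has a value in all 13 libraries and the Ink4a promoter in 7, of which 5 are controls.

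Cdkn2b (ENSMUSG00000073802.5, chr4:89306299-89311039, minus strand), which encodes the neighbouring Ink4 inhibitor p15, had a promoter peak (joined, chr4:89309918-89311414) in 13 of 13 libraries, which covered the start itself in 11. Its fold was 3.33, 3.32 and 4.05 in control brainstem cultures 51, 59 and 61 and 4.86, 3.72 and 3.20 in K27M brainstem cultures 41, 59 and 61. In telencephalon it was 3.11, 2.97 and 3.88 in controls (51, 59, 61) and 3.88, 3.73, 2.50 and 3.50 in K27M (41, 51, 59, 61). Groups overlapped in both regions, and K27M telencephalon 59 stood lowest of all, at percentile 7.94 of its list. The log2 difference was 0.03 ± 0.11 (SE) in brainstem and -0.16 ± 0.10 in telencephalon (limma, adjusted p = 0.997 and 0.999). Between Cdkn2a and Cdkn2b, a peak at chr4:89302947-89304294 was called in both K27M libraries of culture 61 and in no other.

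**Figure D4:**
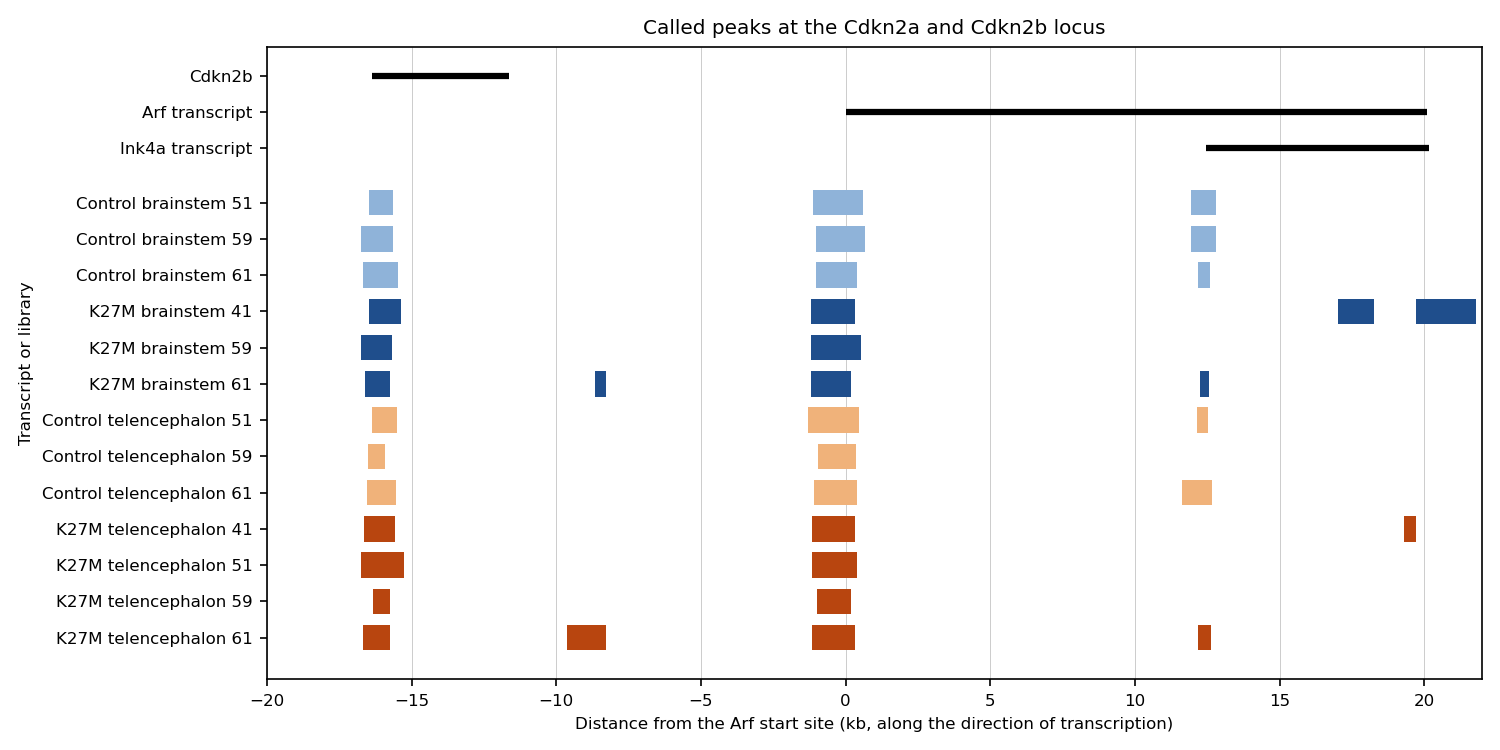
Called peaks (bars) of the 13 libraries around Cdkn2a and Cdkn2b, plotted by distance from the Arf start in kb along the direction of transcription, with the transcripts as black lines and colours marking the 4 groups. Peaks stack in all 13 libraries at the Cdkn2b and Arf starts, and in 7 at the Ink4a start.

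Cdkn2c (ENSMUSG00000028551.14, chr4:109660876-109667189, minus strand) encodes p18, an Ink4 inhibitor of progenitor cells. One peak, joined as chr4:109665023-109667409, reached both of its promoter windows in 13 of 13 libraries and covered the downstream start in 13 and the upstream start in 9, with folds from 2.83 (K27M telencephalon 59) to 3.99 (K27M telencephalon 51). Group means were 3.48 ± 0.108 and 3.41 ± 0.322 (SD, n = 3 and 3) in control and K27M brainstem, and 3.14 ± 0.126 and 3.27 ± 0.499 (n = 3 and 4) in telencephalon. The log2 difference was -0.0007 in brainstem and -0.04 in telencephalon (limma, adjusted p = 0.999 in both regions). The promoter peaks of its neighbours 9630013D21Rik (chr4:109656712-109658225) and Faf1 (chr4:109676034-109677743) were also called in 13 of 13, with median folds of 3.51 and 4.15. At 9630013D21Rik the log2 difference in telencephalon was -0.24 ± 0.11 (limma unadjusted p = 0.0317, adjusted p = 0.998).

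Cdkn1a (ENSMUSG00000023067.14, chr17:29090976-29100727, plus strand) encodes p21, the Cip/Kip inhibitor that p53 induces. Its upstream start had no peak in any library, and the next start, at 29093769, had one in 13 of 13. That peak, joined as chr17:29093530-29095945, covered the start and also touched the promoter window of the neighbour AC167363.2. In telencephalon its fold was 2.29, 2.16 and 2.57 in control cultures 51, 59 and 61 and 3.26, 3.38, 2.71 and 2.73 in K27M cultures 41, 51, 59 and 61. Every K27M value there lay above every control value, on the deposited scale, on list percentiles and after normalisation. On the deposited scale 2 of the 8 genes, Cdkn1a and Trp53, separated in this direction in telencephalon, against a background of 2.22% of promoters. Cdkn1a was the 1 gene of the 8 to do so on percentiles (background 3.83%) and after normalisation (background 2.27%). The log2 difference was 0.24 (95% interval 0.06 to 0.43, limma unadjusted p = 0.0108, adjusted p = 0.999), which is 1.18-fold.

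In brainstem the Cdkn1a fold was 2.93, 2.45 and 2.85 in control cultures 51, 59 and 61 and 3.39, 2.72 and 2.21 in K27M cultures 41, 59 and 61. These overlapped, with a log2 difference of -0.03 (95% interval -0.23 to 0.18, limma adjusted p = 0.997). The effect in brainstem minus that in telencephalon was -0.27 (95% interval -0.53 to -0.01, limma unadjusted p = 0.0428, adjusted p = 1.0). Upstream, peaks at chr17:29077998-29079458, a promoter of Trp53cor1 (the non-coding RNA lincRNA-p21), and at chr17:29081375-29082415 were each called in 12 of 13 libraries.

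Cdkn1b (ENSMUSG00000003031.14, chr6:134920401-134925513, plus strand) encodes p27, which restrains cell division as OPCs mature. Its promoter peak (joined, chr6:134919667-134921649) was the only promoter peak of the 10 genes with a p of 1e-10 or less in all 13 lists. The fold was 3.63, 3.75 and 4.00 in control brainstem (51, 59, 61) and 3.75, 3.61 and 3.49 in K27M brainstem (41, 59, 61). In telencephalon it was 3.67, 3.34 and 4.07 in controls (51, 59, 61) and 3.47, 4.16, 3.18 and 3.17 in K27M (41, 51, 59, 61). The groups overlapped on the deposited scale in both regions, while after normalisation every K27M telencephalon value lay below every control value, for 1 of the 8 genes (background 2.64%). The log2 difference in telencephalon was -0.18 (95% interval -0.37 to 0.01, limma unadjusted p = 0.0622, adjusted p = 0.999) and in brainstem -0.03 (adjusted p = 0.997). A second peak 3′ of the gene, chr6:134926957-134930306 at the Lockd promoter, was called in 13 of 13 with a fold of 3.10 ± 0.2 (SD).

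Cdkn1c (ENSMUSG00000037664.13, chr7:143458339-143461050, minus strand) encodes p57 and is an imprinted gene. It had a promoter peak in the fewest libraries of the 10 genes, 6 of 13, at folds of 2.06 to 2.53. Control brainstem had it in cultures 59 (2.52) and 61 (2.53), and K27M brainstem in culture 41 (2.34). Control telencephalon had it in 51 (2.06) and 61 (2.25), and K27M telencephalon in 59 (2.43). That made 4 of 6 control and 2 of 7 K27M libraries (two-sided Fisher's exact test, p = 0.286, adjusted p = 1.0, background 0.0% of 1814 promoters found in 5 to 8 libraries, with 22 at an unadjusted p under 0.05). Its list percentile was at most 16.95, and at equal number no library kept the peak. No matched pair of cultures had it in both genotypes.

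Ccnd1 (ENSMUSG00000070348.5, chr7:144929931-144939925, minus strand) encodes cyclin D1, the D cyclin most tied to mitogen signalling. Its promoter peak was wide and low: 717 to 5846 bp, and folds of 2.12 to 2.77. Control brainstem had folds of 2.54, 2.30 and 2.37 (51, 59, 61) and K27M brainstem 2.12, 2.77 and 2.17 (41, 59, 61). Telencephalon controls had 2.18, 2.44 and 2.35 (51, 59, 61) and K27M 2.19, 2.55, 2.30 and 2.21 (41, 51, 59, 61). All groups overlapped, with log2 differences of 0.06 ± 0.10 (SE) and -0.005 ± 0.093 (limma, adjusted p = 0.997 and 0.999). At its 3′ end a peak at chr7:144927639-144930550 was called in 12 of 13 libraries, and the neighbouring LTO1 promoter (chr7:144914404-144915952) in 13 of 13 with a median fold of 3.55.

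Ccnd2 (ENSMUSG00000000184.12, chr6:127125162-127152193, minus strand) encodes cyclin D2, used by many neural progenitors. Its promoter peak was missing in both brainstem libraries of culture 59, in control telencephalon 59 and in K27M telencephalon 41. It was present in 4 of 6 control and 5 of 7 K27M libraries, with folds of 2.04 to 2.60 and widths of 270 to 3894 bp. The group means were 2.33 ± 0.382 (SD over 2 libraries) in control brainstem, 2.26 ± 0.004 (2) in K27M brainstem, 2.33 ± 0.345 (2) in control telencephalon and 2.13 ± 0.138 (3) in K27M telencephalon. In control telencephalon 61 the value is that of a peak in the window of an internal start (chr6:127146688), which no peak covered in any library. That peak had a fold of 2.57, against 2.39 in the window of the main start. At equal number control telencephalon 61 was the 1 library kept, and 0 libraries kept a peak in the window of the main start. Genotypes therefore could not be compared at this depth. Inside the gene, chr6:127132921-127135505 was called in 9 libraries (median fold 2.74) and chr6:127141541-127142771 in 7 (2.40). The promoter of Tigar, a p53 target that lies 3′ of Ccnd2, was called in 13 of 13 (chr6:127108912-127110699, median fold 3.28).

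Ccnd3 (ENSMUSG00000034165.16, chr17:47505051-47599691, plus strand) encodes cyclin D3. No peak covered its upstream start in any library, although the Taf8 promoter peak just before it (chr17:47501301-47503195) was called in 13 of 13 and reached its window in control telencephalon 51. The open promoter was the internal one, joined as chr17:47592923-47595999, in 13 of 13 libraries with folds of 2.30 to 2.98. Log2 differences at this peak were 0.11 ± 0.10 (SE) in brainstem and -0.06 ± 0.09 in telencephalon (limma, adjusted p = 0.989 and 0.998). The gene-level values, 0.12 and -0.10 (limma, adjusted p = 0.997 and 0.999), take the Taf8 peak for control telencephalon 51. After normalisation every K27M brainstem value of Ccnd3 lay above every control value, by as little as 1.345 against 1.332 on the log2 scale (background 4.61%). In the body, the peak chr17:47511006-47512066 was called in 13 of 13, centred 6296 bp after the nearest of the clustered upstream starts (chr17:47505051 to 47505241). Its log2 difference was -0.25 ± 0.11 in brainstem (limma unadjusted p = 0.0264, adjusted p = 0.954). The 3′ neighbouring promoter of Bysl and Med20 (chr17:47610684-47612213) had 0.28 ± 0.12 in brainstem (unadjusted p = 0.0298, adjusted p = 0.957). A further body peak at chr17:47544994-47546609, in 12 libraries, had the highest median fold of the locus at 4.02.

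The number of peaks at the Ccnd3 locus was the only one of the 10 to separate the genotypes. Within 20 kb of the gene, telencephalon controls had 6, 4 and 6 peaks (51, 59, 61) and K27M libraries 8, 8, 7 and 8 (41, 51, 59, 61), which do not overlap. That is 1 of the 10 genes, against a background of 0.563% of 39242 genes with a peak at the locus in telencephalon. In brainstem the numbers were 6, 7 and 7 against 6, 8 and 7, and 0 of the 10 genes separated (background 0.771%). At equal number the telencephalon counts were 5, 4 and 5 against 5, 4, 5 and 4, and they overlapped. A broad region called in 2 pieces counts as 2 peaks, and the part of this and of unequal list sizes in the difference was not tested. The window of the last internal start (chr17:47597164) held a peak in 7 of 7 K27M and 2 of 6 control libraries, a count chosen after it was seen and given without a test, and in 3 libraries at equal number. No peak covered that start itself in any library, and the windows of the other internal starts each held a peak in 13 of 13. The share of all start windows split this far was not counted. Of the 50 merged peaks at the 10 loci, 0 were found in every library of one genotype and none of the other in brainstem (background 0.319% of merged peaks) and 0 in telencephalon (background 0.243%).

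**Figure D5:**
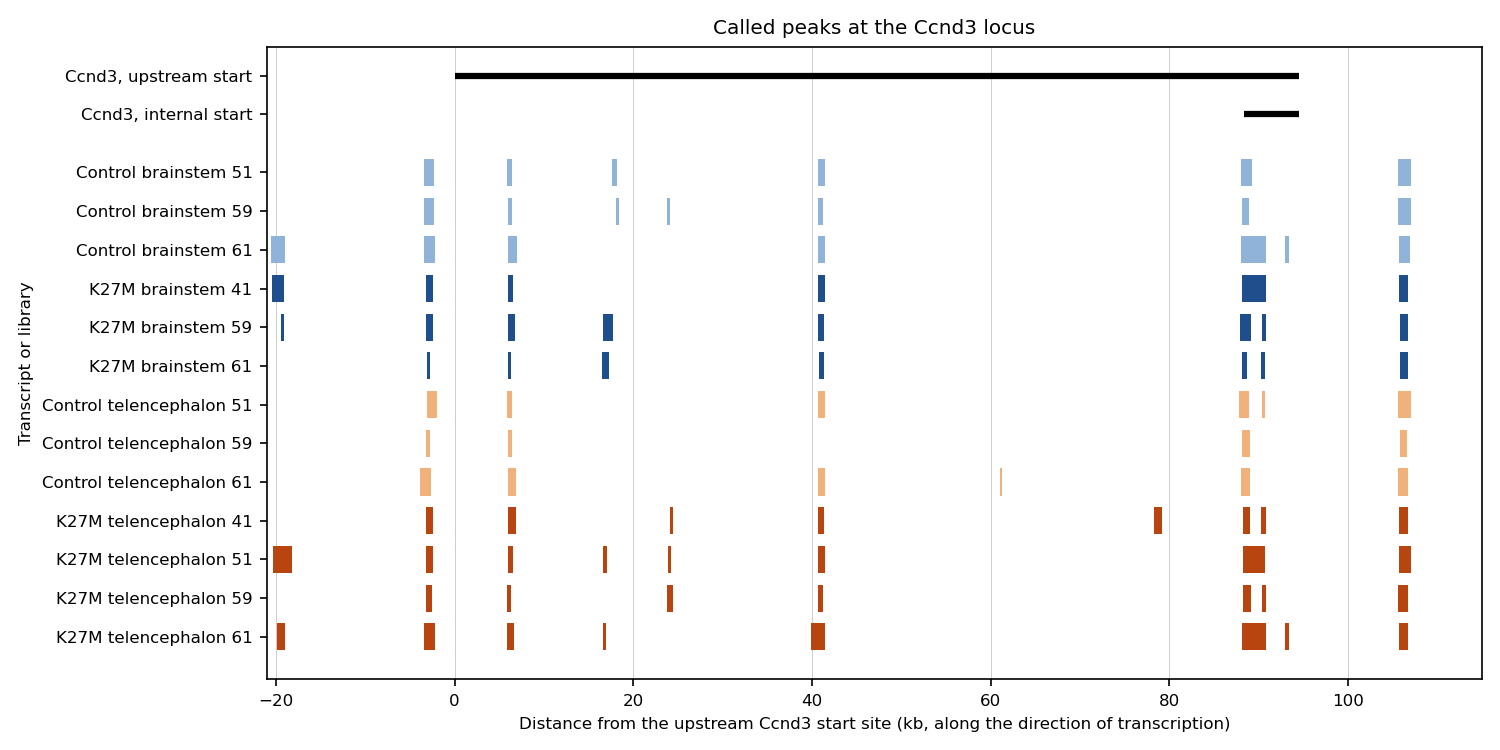
Called peaks (bars) of the 13 libraries around Ccnd3, by distance from its upstream start in kb along the direction of transcription, with an upstream and an internal transcript as black lines. The upstream start has no peak over it in any library, and the K27M telencephalon rows hold 7 or 8 peaks within 20 kb of the gene against 4 to 6 in the control rows.

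Trp53 (ENSMUSG00000059552.13, chr11:69580359-69591873, plus strand) shares its promoter with the antisense gene Wrap53, so the peak (joined, chr11:69578698-69582097) belongs to both and ATAC-seq has no strand to part them. The fold was 2.59, 2.30 and 2.56 in control brainstem cultures 51, 59 and 61 and 2.96, 2.73 and 2.61 in K27M brainstem cultures 41, 59 and 61. In telencephalon it was 2.46, 2.40 and 2.48 in controls (51, 59, 61) and 2.74, 2.91, 2.85 and 2.49 in K27M (41, 51, 59, 61). Every K27M value lay above every control value in each region. K27M was the higher in 5 of 5 matched pairs, by as little as 2.49 against 2.48 in telencephalon culture 61. The same count was 4 of 5 at Cdkn1a and Ccnd3 and 3 at Cdkn2a. It was 2 at Cdkn2b and Ccnd1, and 1 at Cdkn2c and Cdkn1b. The share of all promoters with K27M higher in 5 of 5 pairs was not counted, so the pairs are given without a background. Cultures 59 and 61 gave a pair in each region, so the 5 pairs do not stand for 5 separate culture numbers.

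On the deposited scale 1 of the 8 genes separated in this direction in brainstem (background 0.54% of promoters), and 1 in both regions at once (background 0.0261%, 3 of 11483 promoters). On list percentiles the brainstem groups stayed apart, as 1 of the 8 genes (background 3.61%), and the telencephalon groups overlapped. After normalisation it was likewise, with Trp53 and Ccnd3 as 2 of the 8 genes apart in brainstem (background 4.61%). The percentile ran from 1.83 to 15.9 in control and 23.1 to 55.2 in K27M brainstem, and from 8.13 to 25.1 in control and 22.3 to 50.9 in K27M telencephalon. The log2 difference was 0.19 (95% interval -0.01 to 0.39, limma unadjusted p = 0.0659, adjusted p = 0.997) in brainstem and 0.10 (-0.08 to 0.28, adjusted p = 0.999) in telencephalon. Averaged over both regions, a contrast added after these values were seen, it was 0.14 (95% interval 0.003 to 0.28, limma unadjusted p = 0.0455, adjusted p = 0.999), and 0 of the 8 genes passed it (background 0.0% of 11483). A peak at the 3′ end of Trp53 (chr11:69591481-69593047) and the Atp1b2 promoter beyond it (chr11:69604396-69606571) were called in 13 of 13, with log2 differences between -0.09 and 0.12.

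Over all loci, 18 merged peaks at the 10 genes were called in 13 of 13 libraries and could be tested singly. limma called 0 of 18 in brainstem (background 0.0% of 13075) and 0 of 18 in telencephalon (background 0.0%). At an unadjusted p under 0.05 there were 2 of 18 in each region, beside 4.96% and 4.22% of all peaks tested. They were the Ccnd3 body and Bysl peaks in brainstem, and the 9630013D21Rik and Cdkn1a peaks in telencephalon. For the difference of the K27M effects there were 3 of 18, beside 4.47% of all peaks tested. These were the Bysl, 9630013D21Rik and Cdkn1a peaks, each at a limma adjusted p of 0.999. Between regions there were 2 of 18, beside 6.83%.

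The rest of the G1/S and p53 network was described from a list. Of 24 genes listed for it, among them Cdk4, Cdk6, Rb1, Mdm2 and Atm, 20 had a promoter peak in 13 of 13 libraries (42.0% of protein-coding genes). The others were E2f1 and E2f2 (each in 7 of 7 K27M and 5 of 6 control libraries), E2f4 (6 and 5) and Tfdp1 (7 and 3). All were found in too many libraries for the detection test, so these counts were not tested. limma called 0 of the 20 in brainstem, telencephalon, their difference or between regions. At an unadjusted p under 0.05 there were 0, 2, 1 and 1 of the 20, beside 4.47%, 4.41%, 4.31% and 5.35% of all promoters. Between regions the largest log2 difference was at Ccne2 (-0.19, limma unadjusted p = 0.00562, adjusted p = 0.832). In brainstem the largest log2 difference was at Rb1, the retinoblastoma gene (0.20, 95% interval -0.006 to 0.41, adjusted p = 0.997). In telencephalon it was at Skp2, a ubiquitin ligase subunit that degrades p27 (-0.26, 95% interval -0.50 to -0.02, unadjusted p = 0.0336, adjusted p = 0.999). The median over the 20 was 0.02 in brainstem and 0.03 in telencephalon.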

How the data were processed

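ATAC-seq peak lists of 13 libraries were used. The authors trimmed reads with Trim Galore 0.6.7 and cutadapt 3.4, aligned them to mm10 with BWA 0.7.17-r1188 in the nf-core ATAC-seq pipeline, removed reads in blacklisted regions and used MACS2 2.2.7.1 for broad peaks, per the study's methods and the submitters' processing notes. Whether reads were shifted for the Tn5 offset is not given in the sources used here. Each deposited list gives for each peak a fold ratio over the local background, the −log10 p-value and −log10 q-value averaged over the peak, and a score. The deposited score entered no test. The authors put no common scale on the lists, replicates were not pooled, and depth is unknown, so no counting interval is given.

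A promoter ran from 2 kb before to 1 kb after any GENCODE M21 start. The strongest peak overlapping it by 1 bp gave the gene's fold. Peaks of all lists overlapping by 1 bp were joined into merged peaks. A locus was the gene with 20 kb on each side. log2 folds of the 11483 promoters (or 13075 merged peaks) found in all 13 libraries were normalised by cyclic loess and fitted with limma 3.58.1 in R 4.3.3, with 4 groups and culture as a block and Benjamini-Hochberg adjustment over all features at 0.05. The files hold folds, so the count model of the study was not run. The block follows the study, which matched cultures. Libraries of the same number deviated together only weakly, with correlations of -0.07 to 0.18 over 16 pairs, 5 of them over 0.1, so the numbers alone do not show pairing in these data. Replicates are separate cultures of pooled pups. The limma step was tested on simulated data. Fisher's exact and exact permutation tests used SciPy 1.17.1 in Python 3.11.15. Fisher's exact test and the permutation within region took each library as separate, whatever its culture number.

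All 10 genes are named. Other peaks are named where found in all libraries or separating the genotypes, and listed network genes where they pass or differ most, while peaks outside these rules were chosen after their values were seen. The genes and lists were chosen with earlier results of these data known. Alternatives were no block, no or median normalisation, list percentiles, promoters in at least 10 libraries, each library left out, equal peak number, a p of 1e-10, an overlap of 150 bp and a flank of 5 kb.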

Additional observations from a re-analysis of the deposited data

Results flagged for a closer look

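In the K27M telencephalon group of 4 libraries, 18 sets of values (promoter folds and numbers of peaks at a locus) were searched for a library far from the others, and chance marks about 1 in 20 such sets of continuous values. In 3 sets, all of them numbers of peaks at a locus, 1 library differed by 1 peak from others that were equal to each other. For such tied whole numbers any difference is marked whatever its size, so that rate does not apply and the marks carry no weight. At Cdkn2b, culture 61 had 3 peaks and the other libraries 2. At Ccnd3, culture 59 had 7 and the others 8. At Trp53, culture 41 had 3 and the others 4. No promoter fold stood apart.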

How the results depend on the processing

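None of the 8 testable genes passed limma in any of the 4 genotype contrasts under any of the 18 settings run. The count of called promoters in brainstem was 1 with no replicate block (0 with it) and 0 to 1 with each library left out in turn. It was 1 without K27M brainstem 61, control telencephalon 51 or control telencephalon 59. The contrast averaged over regions gave 0 to 1 (1 without K27M brainstem 61), and peak folds in brainstem gave 1 without normalisation and 0 to 1 with each library left out (1 without control brainstem 59 or K27M telencephalon 59). Leaving out the block changed no other genotype call, and the called promoters between regions, 4 in the main test, numbered 0 without normalisation, 2 after centring on the median, 2 on percentiles and 2 to 6 with each library left out. Genes whose locus peak numbers did not overlap, 300 in brainstem and 221 in telencephalon, fell to 153 and 111 with a 5 kb flank. They rose to 4992 and 2077 under a replicate block asking only for 1 sign in every matched culture, and to 683 to 1611 and 304 to 1888 with a library left out, since fewer libraries had to agree. Ccnd3 in telencephalon kept its separation in all these but not at equal number. The detection test called 0 promoters in every setting run, with 22 at an unadjusted p under 0.05 in the main test and 6 to 52 under other peak filters.

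The contrast over both regions, the comparison of single promoter folds for overlap of groups, and the Ink4a count with its alternatives were chosen after seeing the data. For Cdkn1a in telencephalon the log2 difference ranged from 0.19 to 0.30 over 18 settings, with unadjusted p from 0.0038 to 0.0745. For Trp53 it ranged from 0.14 to 0.22 in brainstem and 0.06 to 0.15 in telencephalon, and the mean over both from 0.12 to 0.17, with an unadjusted p under 0.05 in 9 of 18 settings. The Cdkn2a difference in brainstem ranged from -0.12 to 0.01. The share of libraries with the Ink4a peak was higher in controls by 54.8 percentage points, and by 50 to 71.4 with each library left out (exact permutation p = 0.08 to 0.26), by 33.3 at equal number, and by 0 among peaks with a p of 1e-10 or less, where none was left. Unknown depth limits every missing peak, and broad peaks average the fold over their width.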
